A study of Mus musculus with 8 samples.

Results

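The genes described here code for the subunits, activators and assembly factors of the proteasome. They were chosen by name: every row of the transcript count table whose RefSeq identifier maps to a protein-coding symbol from Psma to Psmg followed by a number, with the row of highest total count kept for each gene. This gave 50 genes of the 21643 with a symbol in the table. Of these, 48 belong to the proteasome by their known function. The other two carry the name only through a binding partner: Psmc3ip, a factor of meiotic recombination, and Psme3ip1, a protein that binds the activator Psme3. They were counted with the rest and are described apart.

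The proteasome degrades proteins that carry chains of ubiquitin. Its core particle is a barrel of alpha subunits (Psma), which form the gated outer rings, and beta subunits (Psmb), which form the inner rings and include the proteases. A regulatory particle caps the barrel: its base holds the ATPases (Psmc) that unfold substrates, and its other subunits (Psmd) bind ubiquitin and remove it. In neurons, protein degradation by this system is known to act beside protein synthesis in synaptic plasticity and memory.

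The samples were polyribosome-associated mRNA, the messages that sediment with several ribosomes, from C57Bl/6 mice aged 7 to 9 weeks. Mice were either exposed to the context alone (control) or fear conditioned, and tissue labelled frontal cortex or hippocampus was taken 1 h or 6 h later, with 1 library for each of the 8 combinations and no further genotype or drug in the labels. The labels state n = 4 for each training state without saying how many animals entered a library, the series design speaks of 8 adult mice and only of prefrontal cortex, and no total RNA was analysed here. Libraries held between 2370973 and 5296986 counts.

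Libraries stood apart in 2 ways that touch the values below. The conditioned 1 h libraries of cortex and hippocampus agree within sampling noise: their mean chi-square over 15511 rows was 1.08, and over 45 proteasome genes 0.78, beside 19.9 and 4.78 for the 1 h controls of the 2 tissues. In both, the summed hippocampal and the summed cortical markers lay between those of the 2 controls. Wfs1, on the hippocampal list, lay above both controls, and it was higher in the cortex control than in the hippocampus control at both times. The 2 libraries were therefore counted as 1 sample of no single tissue, kept out of the tests and given in the values as the conditioned 1 h pair. In the hippocampus control 6 h library, the shallowest, Kif5c, a kinesin motor, took 8.01% of all counts, beside 0.55% in the hippocampus conditioned 6 h library and 0.04% to 0.07% in the others. Markers of hippocampal excitatory neurons summed to between 657 and 1020 CPM (counts scaled to a common library size with TMM factors) in the 3 other hippocampus libraries and to less in the 3 other cortex libraries (265 CPM in cortex conditioned 6 h). Markers of cortical neurons summed to between 1040 and 1550 CPM in those cortex libraries and between 163 and 441 CPM in those hippocampus libraries.

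The 4 messages below carry the main contrasts of the time comparison. Psmb3 and Psmb4, subunits of the beta ring, were lower at 6 h, while Psma4, a subunit of the alpha ring, and Psme4, an activator that caps the core particle, were higher. The first set shows the middle 90 bases of each coding sequence, from the mouse GENCODE M21 transcripts, with G and C in capitals. Over the genes tested, the change at 6 h moved with the base composition of the transcripts. Not every gene followed this: Psmg2, at 46.4% G and C, and Psma6, at 46.6%, had log2 changes of -1.38 and -1.01, neither passing the test. The stretches hold 56.7% (Psmb3), 51.1% (Psmb4), 45.6% (Psma4) and 33.3% (Psme4) G and C, and the whole transcripts 53.8%, 52.2%, 45% and 43.9%.
Psmb3 coding bases 265 to 354: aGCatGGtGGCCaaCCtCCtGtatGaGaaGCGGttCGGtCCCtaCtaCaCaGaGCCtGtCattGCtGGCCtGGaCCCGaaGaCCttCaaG
Psmb4 coding bases 352 to 441: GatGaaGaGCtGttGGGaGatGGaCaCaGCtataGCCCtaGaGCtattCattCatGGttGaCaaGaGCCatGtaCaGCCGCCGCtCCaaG
Psma4 coding bases 349 to 438: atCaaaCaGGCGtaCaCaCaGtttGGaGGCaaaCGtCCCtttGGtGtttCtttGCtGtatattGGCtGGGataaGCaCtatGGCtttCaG
Psme4 coding bases 2722 to 2811: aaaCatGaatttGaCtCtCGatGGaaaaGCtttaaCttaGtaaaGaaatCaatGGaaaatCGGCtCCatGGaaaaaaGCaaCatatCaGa

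The second set shows the promoters of the same genes, since subunit genes are known to be induced together by Nfe2l1, a transcription factor that binds antioxidant response elements. The windows are RefSeq promoters of build GRCm38.p6, 5′ to 3′ on the gene's strand, at chr11:97703184-97703483 (+) for Psmb3, chr3:94886909-94887208 (-) for Psmb4, chr9:54950609-54950908 (+) for Psma4 and chr11:30771525-30771824 (+) for Psme4. Capitals mark matches on either strand to TGANNNNGC, a pattern looser than the core of that element, and to CCAAT, the CCAAT box. A match to TGANNNNGC therefore need not hold the core itself. The 2 motifs do not overlap in these windows.
Psmb3 promoter: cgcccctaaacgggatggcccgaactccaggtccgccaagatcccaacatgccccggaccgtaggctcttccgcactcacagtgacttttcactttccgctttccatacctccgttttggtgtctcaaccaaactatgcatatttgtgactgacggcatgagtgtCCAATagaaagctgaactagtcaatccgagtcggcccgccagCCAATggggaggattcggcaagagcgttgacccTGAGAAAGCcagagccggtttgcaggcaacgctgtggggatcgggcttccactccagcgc
Psmb4 promoter: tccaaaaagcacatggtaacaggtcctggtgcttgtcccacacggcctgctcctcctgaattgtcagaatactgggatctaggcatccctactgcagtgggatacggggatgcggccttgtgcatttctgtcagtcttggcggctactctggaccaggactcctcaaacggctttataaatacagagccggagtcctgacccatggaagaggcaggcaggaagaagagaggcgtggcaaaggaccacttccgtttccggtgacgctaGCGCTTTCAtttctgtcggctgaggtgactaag
Psma4 promoter: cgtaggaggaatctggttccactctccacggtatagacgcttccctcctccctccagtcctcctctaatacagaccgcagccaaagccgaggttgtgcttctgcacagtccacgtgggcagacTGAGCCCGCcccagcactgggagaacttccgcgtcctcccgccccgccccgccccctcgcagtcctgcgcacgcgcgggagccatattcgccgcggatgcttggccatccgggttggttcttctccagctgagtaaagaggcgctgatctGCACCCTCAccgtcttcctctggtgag
Psme4 promoter: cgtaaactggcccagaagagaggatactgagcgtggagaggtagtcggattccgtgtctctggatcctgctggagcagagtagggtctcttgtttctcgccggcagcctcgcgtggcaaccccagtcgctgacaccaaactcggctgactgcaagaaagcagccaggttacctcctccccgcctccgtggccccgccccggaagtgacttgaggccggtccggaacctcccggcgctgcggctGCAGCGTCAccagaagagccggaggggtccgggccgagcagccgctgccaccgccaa
Each of the 4 windows holds TGANNNNGC at least 1 time, and the Psmb3 window also holds CCAAT. Over all subunit genes, TGANNNNGC was found in 25 of 43 windows (58.1%), which belong to 40 genes, beside 41.3% of the 32851 promoter windows of the same length. CCAAT was found in 14 of the 43 (32.6%), beside 37.4% of all. Of the subunit genes with a window, TGANNNNGC was in 6 of 8 whose messages were lower at 6 h, in 2 of 2 that were higher and in 10 of 25 that did not pass the test. A match is a description of the letters and not a binding site.

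Proteasome messages spanned a wide range of levels. Compared per kilobase of transcript (CPM per kb, mean of 7 samples), the highest was Psmc5, the base ATPase also called Rpt6, at 121. It was followed by the beta subunits Psmb5 at 85.5 and Psmb2 at 75.3, the ATPase Psmc3 at 70.2, Psmb7 at 69.1 and the alpha subunit Psma7 at 66.6. Psmb5, Psmb7 and Psmb6 are the catalytic subunits of the constitutive core, with chymotrypsin-like, trypsin-like and caspase-like activity. Psmb6 stood at 61.3 CPM per kb. Their levels over samples were 76.9 ± 34.3 CPM (Psmb5), 80.1 ± 23.4 CPM (Psmb7) and 48.9 ± 26.5 CPM (Psmb6; SD, n = 7), and Psmb5 and Psmb7 differed by less than either SD. Among subunits that passed the low-count filter, the alpha subunit Psma3 stood at 3.45 and the activator Psme4 at 7.19 CPM per kb.

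Of the 50 genes, 44 passed the low-count filter, 42 of them subunits or partners of the proteasome. The 6 that did not pass were Psma8, Psmb8, Psmb9, Psmb11, Psme2 and Psmg4. Psma8, an alpha subunit of germ cells, had 3 counts in all 8 libraries together, where 5 germ-cell markers summed to 0.524 to 12.1 CPM, and Psmb11, the thymus-specific beta subunit, had 7. Psmb8 and Psmb9, catalytic subunits of the immunoproteasome that interferon induces, had 18 and 19 counts, beside 2729 for Psmb5 and 1791 for Psmb6, their constitutive counterparts. Of the 19 counts of Psmb9, 16 were at 1 h and 3 at 6 h. Psmb10, the third catalytic subunit of the immunoproteasome, had 453 counts and a mean of 12.4 ± 8.48 CPM (SD, n = 7), so it was not at the level of the other two. Microglial markers, 8 genes, summed to between 37.7 and 60.3 CPM with no separation of the 2 times, but the genes did not move alike. C1qa (0.666 to 2.64 and 0 to 0.466 CPM), C1qc (6.44 to 8.89 and 2.5 to 5.59 CPM) and Tmem119 (5.29 to 6.82 and 1.15 to 3.73 CPM) were lower in every library at 6 h. P2ry12 was higher (4.32 to 7.87 and 7.97 to 17.9 CPM), and the other genes of the list overlapped between the times.

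The activator subunits Psme1 and Psme2, which assemble into a mixed ring, were read at unequal levels, 57.7 and 2.15 CPM per kb. Psme2 had 74 counts, 48 at 1 h and 26 at 6 h. Its value is uncertain, since RefSeq lists a closely related gene, Psme2b, and how reads shared between copies were counted is not known here. Psmg4, an assembly chaperone of the core, had 42 counts in the 4 libraries at 1 h and 4 counts in the 4 libraries at 6 h, none in either hippocampus library at 6 h, where 3 counts would be 1.73 CPM (control) and 0.699 CPM (conditioned).

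**Figure D1:**
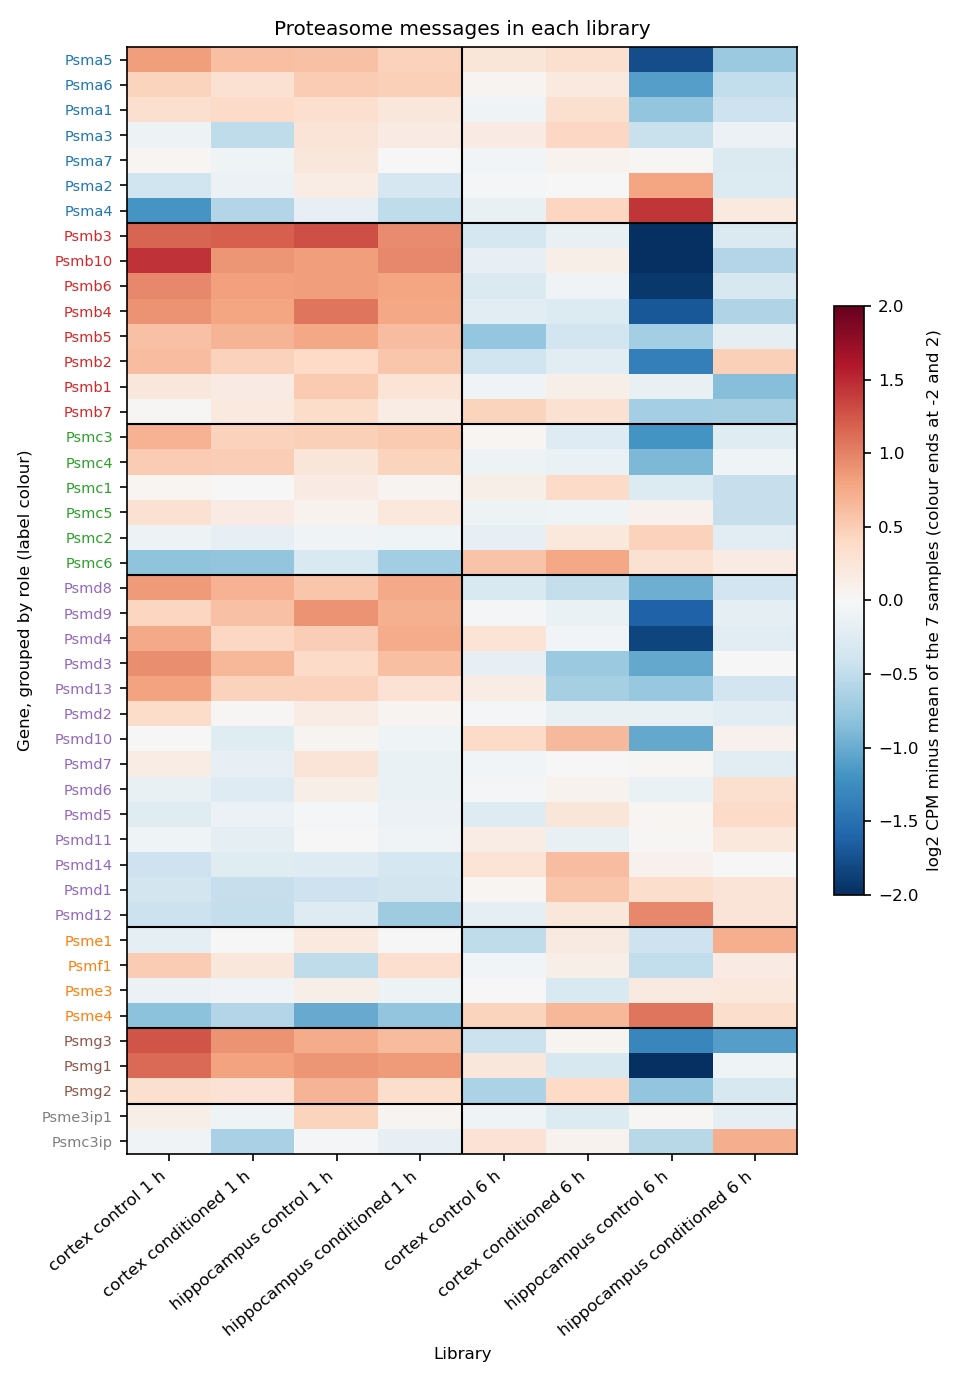
Level of each of the 44 tested proteasome messages (rows, grouped by role) in each of the 8 libraries (columns, 1 h left of the line and 6 h right of it), as log2 CPM minus the gene's mean over the 7 samples; red is higher and blue lower, and the colour ends at -2 and 2. All 8 beta-ring messages lie above their mean in each of the 4 libraries at 1 h, and the hippocampus control 6 h library has the lowest beta-ring median, -1.53.

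The comparison of 6 h with 1 h had the largest differences. Messages of the beta ring were lower at 6 h: 6 of the 8 tested passed, with a median log2 change of -1.66, while of the 7 alpha-ring messages 1 was lower, 1 higher and 5 did not pass, with a median of -0.24. Over all 44 genes tested, 11 were lower at 6 h (25%) and 2 higher (4.55%), beside 10.3% and 12.9% of all 16123 rows tested. The median change was -0.37, beside -0.03 over all rows, and 33 of the 44 estimates were below 0. The test was edgeR's quasi-likelihood test on 6 libraries, with tissue, training and time as terms, Benjamini-Hochberg adjustment over all rows at 0.05 and 2 residual degrees of freedom. The time term rests on the 2 controls at each time, and since nothing in the labels says which samples came from separate animals, p-values measure the spread between these samples, which may be technical.

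These calls depended on single libraries and on base composition. The 11 lower calls became 0 without the hippocampus control 1 h library, 2 when the cortex control at 1 h was left out, 3 when the hippocampus control at 6 h was, and 17 when the cortex control at 6 h was. The shares of all rows called lower in these fits moved alike, at 0%, 1.56%, 1.99% and 21.1%. When each library's trend with GC content and transcript length was removed (GC and length offsets), 1 gene remained lower, Psmb4, and none was higher, beside 1.37% and 4.17% of 15653 rows.

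In the values that follow, each set of 4 libraries is given in the order cortex control, hippocampus control, cortex conditioned, hippocampus conditioned, in CPM; at 1 h the last 2 values are the pair counted as 1 sample. Fitted changes are on the log2 scale with their SE and edgeR's adjusted p.

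Psmb3, a structural subunit of the beta ring, stood at 23.9, 26.2, 24.3 and 20.4 CPM at 1 h and at 8.09, 1.15, 9.33 and 8.39 CPM at 6 h. Every library at 6 h was below every library at 1 h, and the hippocampus control 6 h library, with 2 counts, was far below the other 3. The fitted change was -2.40 ± 0.58 (adjusted p = 0.00782). Psmb10 stood at 26.2, 16.9, 17.5 and 18.5 CPM at 1 h and at 8.28, 1.15, 10.1 and 6.06 CPM at 6 h, again with no overlap and the same library lowest (change -2.26 ± 0.56, adjusted p = 0.00927). The 18 counts of its partner Psmb8 were split 11 and 7 between the times.

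Of the 3 constitutive catalytic subunits, 2 fell. Psmb6 went from 80.2, 73.9, 72.9 and 71.4 CPM at 1 h to 33.5, 10.4, 39.1 and 32.9 CPM at 6 h, a change of -1.92 ± 0.46 (adjusted p = 0.00756). Psmb5, the target of the proteasome inhibitor bortezomib, went from 106, 121, 113 and 108 CPM to 41, 43.9, 53.9 and 61.8 CPM, a change of -1.43 ± 0.39 (adjusted p = 0.0145). Neither overlapped between the times, and in Psmb5 the hippocampus control 6 h library was close to the cortex control 6 h library. Psmb7 did not pass: it stood at 78.4, 99.3, 87.9 and 85.3 CPM at 1 h and at 105, 47.9, 95.3 and 48.5 CPM at 6 h, so that both hippocampus libraries at 6 h were below all others and both cortex libraries at 6 h were within or above the 1 h range (change -0.37 ± 0.43, adjusted p = 0.533).

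The other beta subunits that fell were Psmb4 and Psmb2. Psmb4 stood at 110, 124, 102 and 101 CPM at 1 h and at 50.8, 17.9, 48.6 and 38.7 CPM at 6 h (change -1.88 ± 0.44, adjusted p = 0.00736). It was the 1 gene that passed with GC and length offsets, at -1.21 ± 0.33 (adjusted p = 0.0351). Psmb2 changed by -1.34 ± 0.43 (adjusted p = 0.031), but its hippocampus conditioned 6 h library, at 82.3 CPM, lay within the 1 h range of 77.7 to 90.7 CPM. Psmb1 had an estimate of -0.54 ± 0.43 and did not pass (adjusted p = 0.364), although all 4 values at 6 h, 18.4 to 36.2 CPM, were below those at 1 h, 37.7 to 48.2 CPM.

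**Figure D2:**
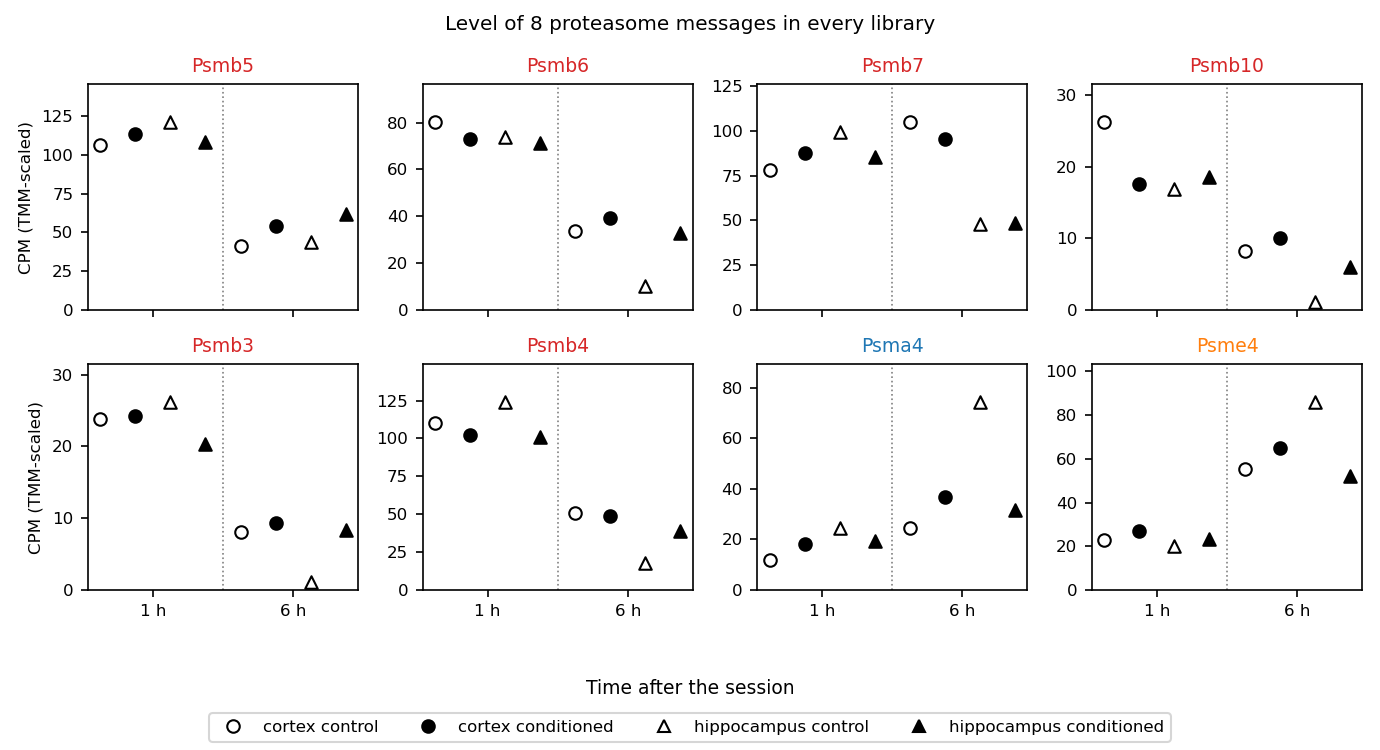
CPM (TMM-scaled, axis from 0) of 8 proteasome messages in every library, with the 4 libraries at 1 h left of the dotted line and the 4 at 6 h right of it; circles are cortex, triangles hippocampus, open symbols control and filled symbols conditioned. Psmb5, Psmb6, Psmb10, Psmb3 and Psmb4 have no overlap between the times, Psmb7 overlaps, and Psma4 and Psme4 lie higher at 6 h.

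In the alpha ring, Psma5 and Psma4 moved in opposite directions. Psma5 stood at 34.3, 28.9, 29.1 and 26.2 CPM at 1 h and at 22.5, 5.19, 23.7 and 11.2 CPM at 6 h, with both hippocampus libraries at 6 h lowest (change -1.40 ± 0.49, adjusted p = 0.0427). Psma4 stood at 11.8, 24.4, 18.2 and 19.2 CPM at 1 h and at 24.6, 74.4, 36.9 and 31.5 CPM at 6 h (change 1.35 ± 0.46, adjusted p = 0.0399). Its lowest value at 6 h, in the cortex control, exceeded the highest at 1 h, in the hippocampus control, by little, and the hippocampus control 6 h library gave the peak. Without that library the Psma4 change was 0.67 with adjusted p = 0.422, and that of Psma5 was -0.81 with adjusted p = 0.309. In RefSeq the span of Psma4 overlaps that of another coding gene, AY074887, and whether the counting used strand is not known here. The other 5 alpha messages had estimates between -1.01 (Psma6) and 0.50 (Psma2), and Psma7 was among the steadiest of all, at 60.9 ± 6.44 CPM (SD, n = 7).

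Among the base ATPases, 1 of 6 passed. Psmc3, also called Rpt5, stood at 173, 148, 146 and 153 CPM at 1 h and at 109, 46.2, 88.5 and 89.5 CPM at 6 h, with no overlap (change -1.13 ± 0.41, adjusted p = 0.0499, at the threshold). Psmc5, whose phosphorylation by CaMKII is known to affect proteasome activity at synapses, stood at 195, 165, 175 and 182 CPM at 1 h and at 146, 167, 148 and 114 CPM at 6 h. Its times overlapped and its change of -0.21 ± 0.38 did not pass (adjusted p = 0.705). The highest estimate of the ATPases was that of Psmc6, 0.96 ± 0.45 (adjusted p = 0.114), and all its values at 6 h, 23.5 to 36.2 CPM, were above those at 1 h, 11.8 to 16.9 CPM.

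Of the 14 messages of the Psmd series, 2 passed, both lower. Psmd8, a lid subunit, stood at 97.5, 79.9, 87.5 and 91.8 CPM at 1 h and at 43.7, 27.1, 38.9 and 41.5 CPM at 6 h, with no overlap and little spread within a time (change -1.35 ± 0.40, adjusted p = 0.0223). Psmd3, another lid subunit, stood at 99.4, 68.4, 82.9 and 79.3 CPM at 1 h and at 46.4, 25.4, 31.1 and 52 CPM at 6 h (change -1.24 ± 0.43, adjusted p = 0.0429).

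The ubiquitin receptors and the deubiquitinase of the regulatory particle did not pass. Psmd4 stood at 79.2, 65.3, 61.8 and 77.6 CPM at 1 h and at 56.4, 12.7, 44.9 and 39.6 CPM at 6 h (change -1.25 ± 0.47, adjusted p = 0.0558), with the hippocampus control 6 h library apart from the other 3. Psmd2, the scaffold subunit that docks ubiquitin carriers, stood at 102, 87.3, 80.2 and 82.4 CPM at 1 h and at 78.2, 71, 71.4 and 67.4 CPM at 6 h (change -0.36 ± 0.38, adjusted p = 0.492). Psmd14, the metalloprotease that removes ubiquitin chains, stood at 34.1, 38.2, 38.6 and 35.8 CPM at 1 h and at 55.3, 48.5, 70.4 and 45.5 CPM at 6 h (change 0.49 ± 0.40, adjusted p = 0.378). Psmd4 and Psmd2 were lower and Psmd14 higher at 6 h in all 4 libraries, without passing. Psmd5, Psmd9 and Psmd10, which by known function are chaperones of the base and not parts of the finished particle, had estimates of -0.01, -1.32 and -0.25, none passing.

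Psme4 was the activator that rose. It stood at 22.8, 20, 27 and 23.3 CPM at 1 h and at 55.5, 86, 65.1 and 52.2 CPM at 6 h, with no overlap (change 1.69 ± 0.42, adjusted p = 0.00954). Without the hippocampus control 6 h library the change was 1.25 (adjusted p = 0.0709). Its transcript, 6491 bases, is the longest of the set, and its span in RefSeq overlaps that of Erlec1. Psme1 stood at 54.3, 70.6, 62.5 and 62.5 CPM at 1 h and at 43.3, 46.2, 70.2 and 102 CPM at 6 h, with both controls below and the hippocampus conditioned library above the 1 h range (change -0.48 ± 0.39, adjusted p = 0.368). Psme3, the nuclear activator, stood between 128 and 151 CPM at 1 h and between 113 and 162 CPM at 6 h (change 0.07 ± 0.38, adjusted p = 0.904). Psmf1, known as an inhibitor of the core particle, stood at 39.9, 19.5, 32.7 and 35.3 CPM at 1 h and at 26.8, 19.6, 30.3 and 31.5 CPM at 6 h (change -0.34 ± 0.44, adjusted p = 0.583).

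All 3 assembly chaperones of the Psmg series that were tested had negative estimates, and 1 passed. Psmg3 stood at 9.18, 6.22, 7.04 and 5.77 CPM at 1 h and at 2.5, 1.15, 3.69 and 1.4 CPM at 6 h (change -2.11 ± 0.64, adjusted p = 0.0237). It passed neither in DESeq2 (adjusted p = 0.0687) nor without the hippocampus control 6 h library (adjusted p = 0.0525). Psmg1 had an estimate of -1.64 ± 0.62 (adjusted p = 0.0562) and Psmg2 one of -1.38 ± 0.58 (adjusted p = 0.084). Of the genes that are no subunits, Psmc3ip, with 96 counts, had a change of 0.10 ± 0.68 and Psme3ip1 one of -0.34 ± 0.41, and neither passed.

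**Figure D3:**
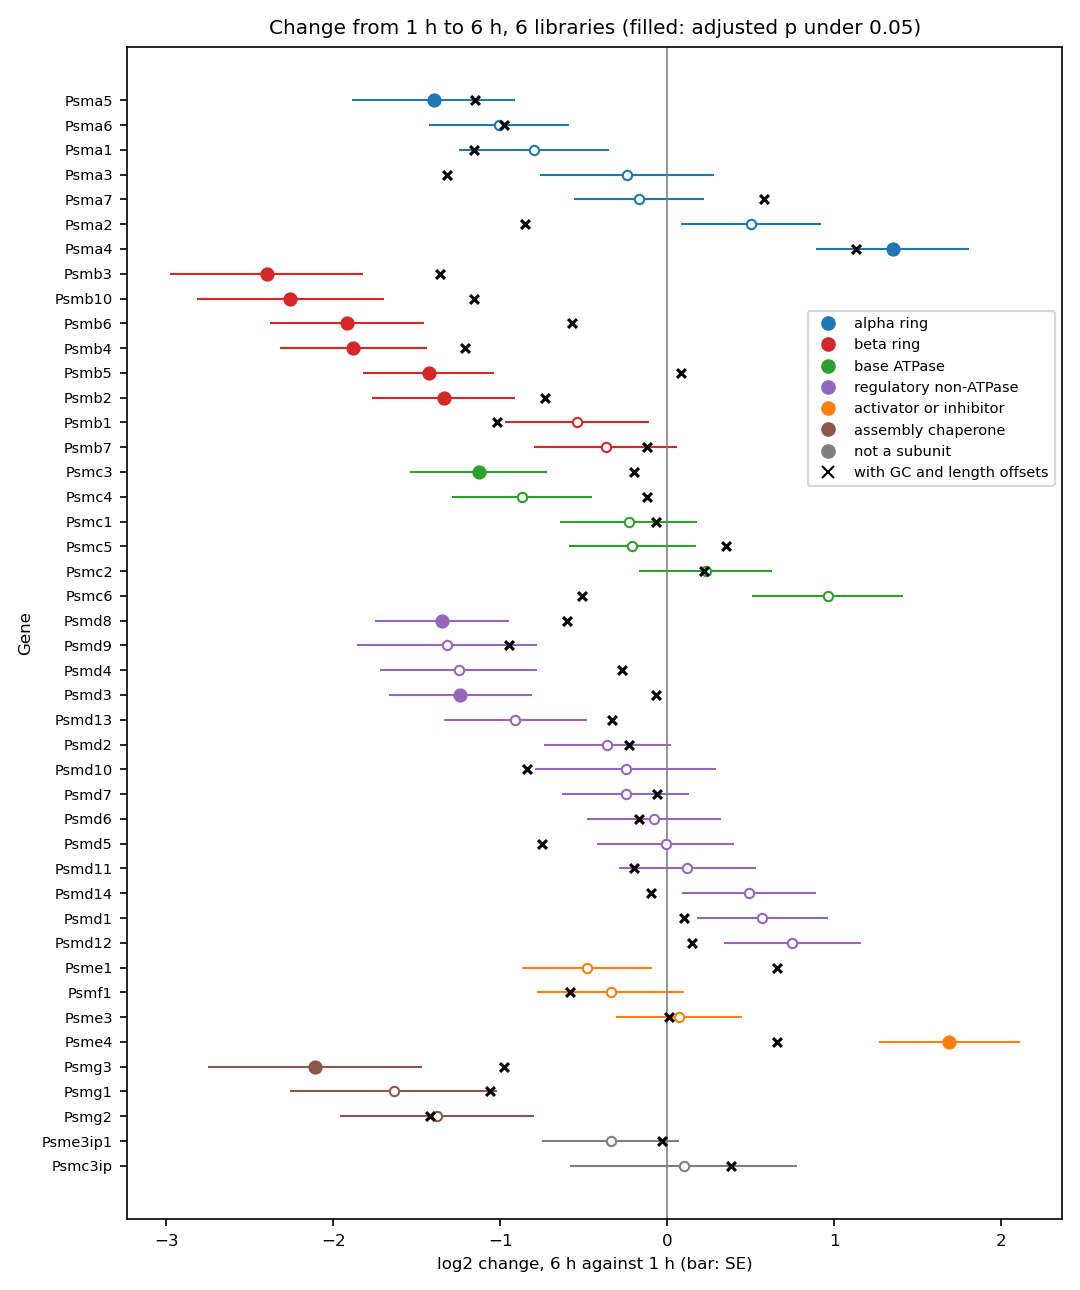
Fitted log2 change from 1 h to 6 h for the 44 tested genes, grouped and coloured by role, with bars of 1 SE on each side; filled points have an adjusted p under 0.05 in edgeR's test and crosses give the estimate with GC and length offsets. The beta ring holds 6 of the 11 lower calls, and the crosses of the 11 lower calls lie nearer to 0 than their points, with Psmb5 at 0.08.

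Without the fit, over all 8 libraries, 18 of the 44 genes had every value at 6 h below every value at 1 h, beside 19.5% of all rows, and 6 had every value above, beside 24.2%. The 18 included 6 beta-ring, 6 Psmd, 2 alpha-ring, 2 ATPase and 2 Psmg messages. The 6 above were Psma4, Psmc6, Psmd1, Psmd12, Psmd14 and Psme4. Summed over the 8 tested beta-ring messages, the level was 532.1 to 587.3 CPM at 1 h, and 323.3 (cortex control), 174.9 (hippocampus control), 343 (cortex conditioned) and 297 CPM (hippocampus conditioned) at 6 h. The alpha ring, 7 messages, summed to 234.9 to 274.7 CPM at 1 h and 183.2 to 259.2 CPM at 6 h, so its times overlapped where those of the beta ring did not. The 20 Psmc and Psmd messages, among them the base chaperones Psmd5, Psmd9 and Psmd10, summed to 1271 to 1426 CPM at 1 h. At 6 h they summed to 1146 to 1276 CPM, which overlaps only at the edge.

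The 2 tissues were also compared within the controls, with 1 library per point and no test. In the cortex the median log2 ratio of 6 h to 1 h over the 42 subunits was -0.39, with 28 below 0, and in the hippocampus -0.87, with 29 below 0. For the beta ring the medians were -1.18 and -2.26, beside 0.02 and -0.07 over all rows. A term for the difference of the time effect between tissues passed in none of 46 genes (lowest adjusted p = 1, edgeR, none with an unadjusted p under 0.05) and in none of 16824 rows. That fit leaves 1 residual degree of freedom and holds 1 library per tissue at 1 h, so it cannot decide whether the tissues differ. Markers of neurons, 5 genes, summed to 11000 to 13700 CPM at 1 h and 22000 to 31500 CPM at 6 h, so this sum moved with time as well. Its genes did not move alike: Snap25, which makes up most of it, stood at 5970 to 8420 CPM at 1 h and 15100 to 26700 CPM at 6 h, Syt1 and Rbfox3 were also higher at 6 h in all 4 libraries, Camk2a overlapped (3290 to 3660 and 2830 to 4890 CPM) and Slc17a7 was lower (671 to 922 and 244 to 555 CPM). Summed markers of astrocytes (163 to 324 CPM), oligodendrocytes (572 to 1170 CPM), endothelial cells (3.15 to 6.73 CPM) and striatal projection neurons (12.7 to 330 CPM) overlapped between the times. Within the astrocyte list, Aqp4 was higher in every library at 6 h (11.5 to 19.1 and 31 to 56 CPM) and Aldh1l1 lower (14.4 to 28.1 and 8.08 to 12.3 CPM), while its other genes overlapped. The part of any of these in the change of proteasome messages was not tested. In bulk tissue, fewer cells of a type and less RNA per cell cannot be told apart.

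Base composition moved with the time change. Over the 44 genes the log2 change fell with the GC content of the transcript, with Pearson's r = -0.70 and Spearman's rho = -0.69, beside r = -0.73 and rho = -0.75 over the 15653 rows with a GC value; the points share the same 6 libraries, and genes are not independent replicates. Among the 15 genes of 37% to 47.3% GC the median change was -0.01, with 2 higher and none lower, among the next 14, up to 52%, it was -0.24, with 2 lower, and among the 15 of 52% to 58.3% it was -1.32, with 9 lower. All rows in these ranges had medians of 0.92, 0.10 and -0.76. Of these rows, 31%, 6.7% and 0.945% were called higher and 0.325%, 3.04% and 18.1% lower, in the same order. In each range the median of the proteasome genes thus lay below that of the rows of like GC content, by values that were not tested. The ranges do not match rows on transcript length. The log2 change also rose with log2 transcript length, with r = 0.59 over the 44 genes, beside r = 0.36 over the 15653 rows.

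The roles differ in composition. The beta ring had a median GC content of 53.8% and the alpha ring one of 44.5%. Psmb5, at 56.6%, had a change of 0.08 ± 0.35 with GC and length offsets, in place of -1.43. Psmb6, at 55.8%, had -0.57 ± 0.34 (adjusted p = 0.34), and Psme4, at 43.9%, had 0.66 ± 0.32 (adjusted p = 0.243). The correlation after the offsets was r = 0.08 with GC content and r = 0.16 with log2 transcript length over the 44 genes. The offsets remove both trends together, so the part of each in these shifts cannot be told apart.

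With the offsets the alpha ring had a median of -0.98 and the beta ring one of -0.88. Psma1, Psma2, Psma3, Psma5 and Psma6, at 39.4% to 49.2% GC, had estimates of -1.16 ± 0.36, -0.85 ± 0.33, -1.32 ± 0.43, -1.15 ± 0.39 and -0.98 ± 0.33, with adjusted p from 0.0594 to 0.13. The other two lay above 0, Psma4 at 1.13 ± 0.39 (adjusted p = 0.0877) and Psma7 at 0.58 ± 0.33 (adjusted p = 0.313). No alpha message passed. The same offsets on all 8 libraries as labelled, an alternative chosen after seeing the data that counts the conditioned 1 h pair as 2 samples, gave 8 lower and 2 higher, beside 5.04% and 8.42% of the rows tested there, and 5 of these 10 were among the 13 calls of the main test. The lower genes there were Psma1 (-0.99), Psma2 (-0.88), Psma5 (-0.92), Psma6 (-0.86), Psmb1 (-1.05), Psmb3 (-1.01), Psmb4 (-1.05) and Psmd8 (-0.69), and the higher ones Psme1 (0.85) and Psme4 (0.58). Psmb4 was lower in both fits with offsets on 6 and on 8 libraries, and with offsets but without the hippocampus control 6 h library its estimate was -0.86 and did not pass (adjusted p = 0.198).

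**Figure D4:**
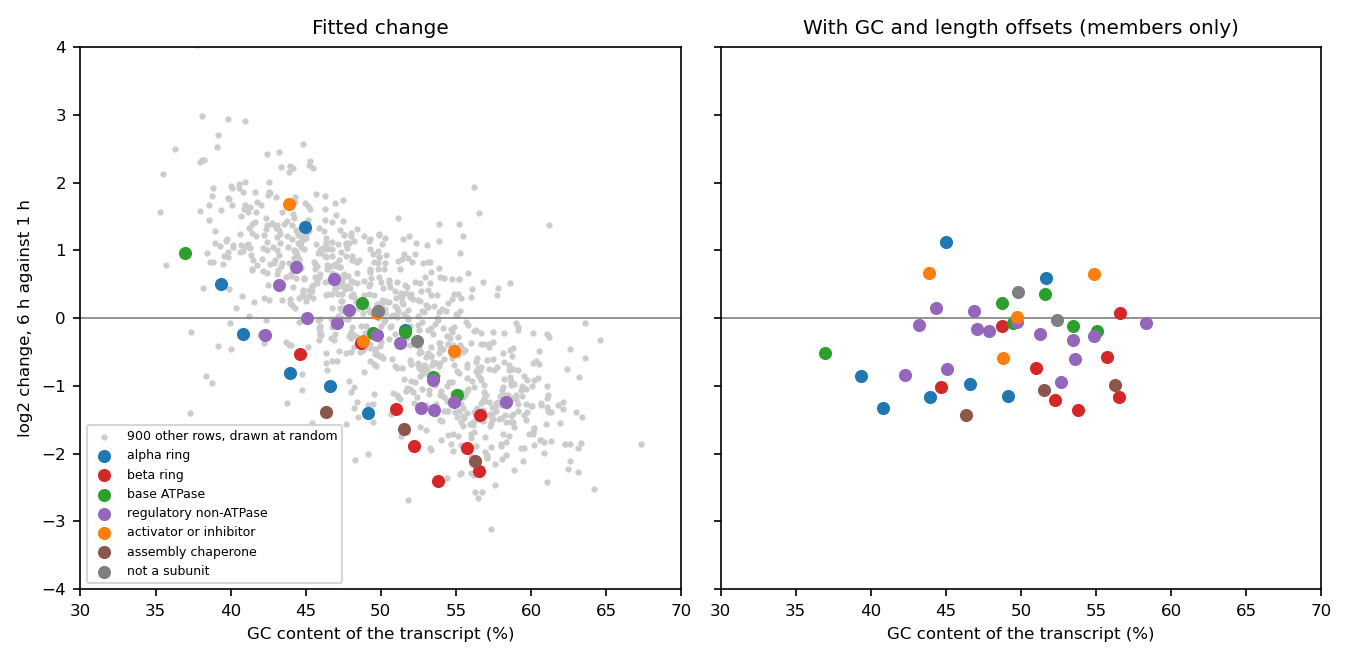
Log2 change from 1 h to 6 h against the GC content of the transcript (percent), with proteasome genes coloured by role and other rows of the table in grey; the left panel shows the fitted change and the right panel the change of the proteasome genes with GC and length offsets. On the left the points fall from left to right (r = -0.70 over 44 genes), and on the right they do not (r = 0.08).

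Subunits of 1 particle did not vary as 1 block over the samples. Over the 7 samples, the median of the pairwise Pearson correlations of log2 CPM was 0.77 within the beta ring (lowest 0.14), 0.37 within the alpha ring (lowest -0.87) and 0.22 over all 44 genes (lowest -0.97); all pairs share libraries, depth and time. The steadiest messages were Psmd11, with an SD of log2 CPM of 0.14 over the 7 samples, and Psma7 and Psmd7, each with 0.16. The most variable were Psmb3 with 1.41, Psmb10 with 1.33 and Psmg1 with 1.29.

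The comparison of the tissues asks whether proteasome messages differ between hippocampus and cortex. No gene of the 44 passed, in either direction, beside 1.72% of all rows higher and 2% lower in the hippocampus. The median change was -0.23, beside 0.00 over all rows, with 31 of 44 estimates below 0. By unadjusted p, 2 of 44 were under 0.05 in edgeR (4.55%), 2 in DESeq2 (4.55%) and 4 in limma-voom (9.09%), beside 13.5%, 11.2% and 13.8% of all rows.

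The 5 genes of smallest p were Psma5, Psmb10, Psmd4, Psma4 and Psmg3. Psma5 had an estimate of -1.04 ± 0.40 (adjusted p = 0.193) and was lower in the hippocampus of each pair of libraries, at 34.3 and 28.9 CPM in the 1 h controls, 22.5 and 5.19 CPM in the 6 h controls and 23.7 and 11.2 CPM in the 6 h conditioned libraries (cortex first). Psmb10 was also lower in the hippocampus of each pair, with the values given above and an estimate of -1.06 ± 0.45 (adjusted p = 0.274). Psmd4 had -0.79 ± 0.38 (adjusted p = 0.371), Psmg3 -0.93 ± 0.51 (adjusted p = 0.475) and Psma4 0.79 ± 0.38 (adjusted p = 0.375).

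Single pairs of libraries show where these estimates come from. At 1 h the hippocampus control stood close to the cortex control, with a median log2 ratio of 0.07 over 42 subunits and 25 above 0. At 6 h the median was -0.41 in the controls, with 29 below 0, and -0.24 in the conditioned libraries, with 27 below 0. The beta ring had medians of 0.15, -1.30 and -0.29 in the same order. For the subunits together and the beta ring, the largest departure was thus that of the hippocampus control 6 h library, in which Kif5c took 8.01% of the counts. The alpha ring was low at 6 h without that library as well, but not at 1 h. All 7 messages were below 0 in the 6 h conditioned libraries (median -0.53), beside 50.1% of all rows. In the 6 h controls 4 were below 0 (median -0.60), beside 52.7% of all rows. In the 1 h controls 6 were above 0 (median 0.19). The base ATPases had medians of -0.40 (6 h conditioned), -0.33 (6 h controls) and -0.09 (1 h controls). The Psmd messages had 0, -0.16 and 0.07 in the same order.

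The comparison of conditioned with control mice at 6 h asks whether fear conditioning changed the polyribosome-associated proteasome messages. No gene of the 44 passed in edgeR, beside 0% of the 16123 rows, and 2 of 44 had an unadjusted p under 0.05 in edgeR, DESeq2 and limma-voom alike (4.55%), beside 4.13%, 3.05% and 4.37% of all rows. The median change was 0.28, beside 0.02 over all rows, with 29 of 44 estimates above 0 and a median of 0.62 in the beta ring.

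Psme1 had the smallest p, with 43.3 CPM in the control and 70.2 CPM in the conditioned cortex, and 46.2 and 102 CPM in the hippocampus (change 0.92 ± 0.39, adjusted p = 0.911, edgeR). It was higher in the conditioned library of both tissues. Psmb2 stood at 44.7 and 50.6 CPM in the cortex and at 22.5 and 82.3 CPM in the hippocampus, so nearly all of its change of 1.00 ± 0.44 (adjusted p = 0.911) came from the hippocampus. Psmb6 (0.79 ± 0.45), Psmg2 (0.88 ± 0.58) and Psmb3 (0.86 ± 0.58) followed, each with adjusted p = 0.911 in edgeR.

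Within the cortex, the median log2 ratio of conditioned to control over the 42 subunits was 0.18, with 29 above 0, and all 7 alpha-ring messages lay above 0 with a median of 0.15. Within the hippocampus the median was 0.38, with 28 above 0, and that of the beta ring was 1.35. Psmb3 gave the largest of the beta-ring ratios named here: 36 counts against 2, 7.27 times as high by CPM (95% counting interval, 1.87 to 62.3). The same library, hippocampus control 6 h, is the denominator of each of these hippocampus ratios and had the lowest beta-ring sum of all 8 libraries. Without the cortex control 6 h library, which leaves that library as the single 6 h control, 4 genes passed as higher in conditioned mice (Psmd4 1.61, Psmb2 1.66, Psmb6 1.69 and Psmb3 2.91), beside 7.59% of all rows, and none as lower, beside 4.9%.

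**Figure D5:**
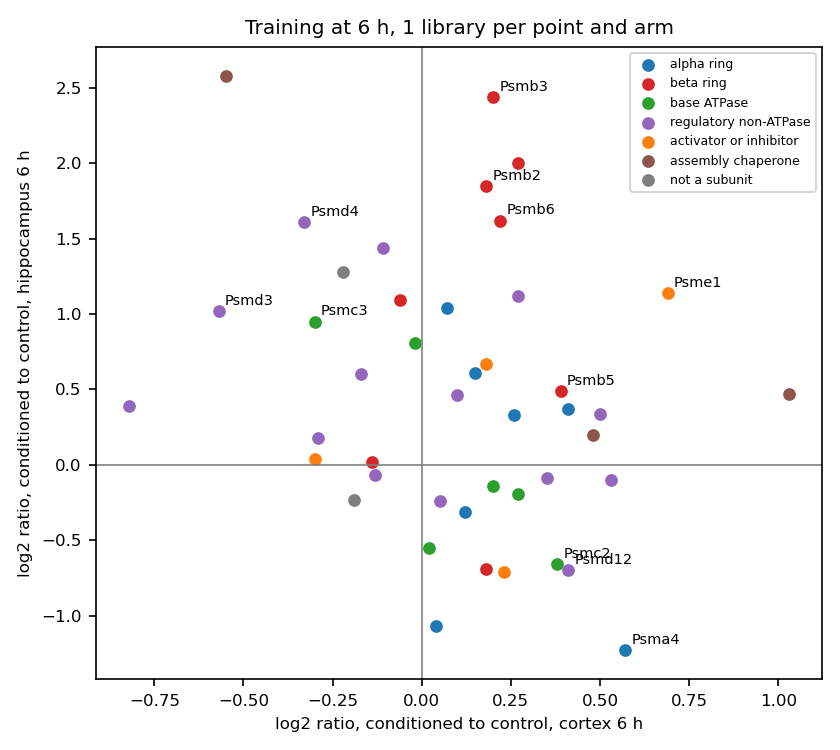
Log2 ratio of conditioned to control CPM at 6 h for the 44 tested genes, in the cortex (x axis) and the hippocampus (y axis), with 1 library in each arm and colours by role. Psme1 lies above 0 on both axes, Psmb3, Psmb2 and Psmb6 lie high on the hippocampus axis alone, and Psma4, Psmc2, Psmc3, Psmd3, Psmd4 and Psmd12 lie on opposite sides of 0 in the 2 tissues.

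At 1 h the conditioned samples could not be assigned to a tissue, so their values were set beside the controls without a test. The mean of the pair lay between the cortex and hippocampus controls for 21 of the 44 genes. The log2 difference of the pair from the mean of the 2 controls had a median of -0.09, beside 0.00 over all rows, and ranged from -0.35 (Psmd7) to 0.28 (Psmf1), with 35 below 0. The SD of that difference over all rows was 0.30.

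The wider ubiquitin pathway was read from a list of 74 genes that activate, attach, carry or remove ubiquitin or help assemble and regulate the proteasome. Of the 72 tested, 12 rose and 15 fell from 1 h to 6 h, beside 12.9% and 10.3% of all rows, with a median of 0.23, and none passed for tissue or training. With GC and length offsets 2 rose and 3 fell, beside 4.17% and 1.37% of rows, with a median of -0.26. Of the genes on the list that bind the proteasome, chosen here after their values were seen, the deubiquitinase Uchl5 rose by 1.64 ± 0.45 (adjusted p = 0.0146) and the adaptor Ecpas by 1.14 ± 0.40 (adjusted p = 0.0458), both not passing with offsets (adjusted p = 0.338 and 0.865). Sem1, a small lid subunit outside the naming rule, had -1.41 ± 0.70 (adjusted p = 0.138) and passed with offsets, at -2.51 (adjusted p = 0.017). It stood at 4.46, 9.33, 4.77 and 6.49 CPM at 1 h and at 4.04, 1.15, 4.28 and 1.17 CPM at 6 h. Its cortex values thus hardly moved, and the low values were those of the hippocampus libraries at 6 h. In these, 3 counts would be 1.73 CPM (control) and 0.699 CPM (conditioned).

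The largest rises were in enzymes that attach or trim ubiquitin. Ube2v2, a partner of the conjugating enzyme Ube2n, stood at 10.2, 24.2, 13.9 and 18.7 CPM at 1 h and at 57, 108, 53.5 and 53.6 CPM at 6 h (change 2.26 ± 0.44, adjusted p = 0.00332). Cul3, a ligase scaffold, changed by 2.15 ± 0.42 (adjusted p = 0.00347), the deubiquitinase Usp9x by 1.80 ± 0.43 (adjusted p = 0.00793) and Ube3a, the ligase lost in Angelman syndrome, by 2.06 ± 0.44 (adjusted p = 0.00512). Ube3a stood at 28.3, 31.3, 36.4 and 32.7 CPM at 1 h and at 71.6, 204, 70.4 and 70.2 CPM at 6 h, with the hippocampus control 6 h library far above the other 3. These 4 transcripts have 35.1% to 40% GC, and with offsets their estimates were 0.36, 0.58, 0.12 and 0.06, none passing.

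Among the genes that fell were a hydrolase, a ubiquitin gene and a ligase subunit. Uchl1, a ubiquitin hydrolase of neurons, went from 387, 327, 314 and 331 CPM to 163, 16.2, 154 and 93 CPM (change -2.51 ± 0.55, adjusted p = 0.00512). The polyubiquitin gene Ubb went from 1220, 1040, 978 and 1010 CPM to 407, 112, 362 and 512 CPM (change -2.26 ± 0.49, adjusted p = 0.00512), and Fbxo2, a brain F-box protein, changed by -2.29 ± 0.57 (adjusted p = 0.00914). With offsets Ubb still passed, at -1.47 (adjusted p = 0.0228), while Uchl1 (-1.24, adjusted p = 0.0532) and Fbxo2 (-0.80, adjusted p = 0.281) did not. In Uchl1 and Ubb the hippocampus control 6 h library was again the lowest, as in the sum of the beta ring, though not in each of its messages.

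Of 8 pathway genes named whatever their change, Uba1, Usp14, Nfe2l1 and Pomp did not pass. Uba1, the main ubiquitin-activating enzyme, changed by -0.80 ± 0.40 (adjusted p = 0.138) and Usp14, a deubiquitinase bound to the base, by 0.65 ± 0.38 (adjusted p = 0.206). Nfe2l1, the factor that induces subunit genes, stood at 298, 211, 287 and 260 CPM at 1 h and at 219, 80.8, 224 and 212 CPM at 6 h (change -0.88 ± 0.41, adjusted p = 0.116). Pomp, the maturation factor that brings beta subunits into the forming core, stood at 100, 133, 102 and 104 CPM at 1 h and at 78.6, 33.5, 122 and 130 CPM at 6 h (change -1.11 ± 0.44, adjusted p = 0.0643), so that both controls lay below the 1 h range and both conditioned libraries within it.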

How the data were processed

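Polyribosome-associated mRNA was measured by RNA sequencing after ribosomal RNA removal, SPIA amplification and PCR, per the labels' protocols. The authors deposited raw counts, as whole numbers, for each RefSeq transcript. The submitters' processing notes name build mm9 and the tools TopHat 1.3.1, CASAVA 1.7, limma 3.12.3 and edgeR 2.612. How reads were counted, with or without strand, and where shared reads went is not stated. Amplification without molecular identifiers means that counting intervals (exact, 95%) and floors (3 counts) cover counting error only.

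The table had 28157 rows and 27304 identifiers, of which 98.1% matched a symbol through RefSeq and GENCODE tables of GRCm38, used for names, GC content and length. The 594 unmatched rows (1.19% to 1.99% of a library's counts) stayed in the tests by identifier. The 50 genes held 54 rows. In RefSeq the spans of 14 overlap another gene, 8 of them a coding gene, which could share reads. Tests used edgeR 4.0.16 in R 4.3.3 (TMM factors, default low-count filter, robust quasi-likelihood test, Benjamini-Hochberg adjustment over all rows at 0.05) on the 6 libraries outside the conditioned 1 h pair, and the method was tested on simulated counts. Log2 ratios of single libraries used a prior count of 2. GC and length offsets removed a spline trend of 5 degrees of freedom per library. Alternatives were all 8 libraries, the pair summed, these offsets, upper-quartile factors, DESeq2 1.42.0, limma-voom (limma 3.58.1), no low-count filter, rows of a gene summed and each library left out. The offsets on all 8 libraries and without the hippocampus control 6 h library were added after seeing the data.

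The members, gene lists, tests and motifs were chosen with earlier results of these data known. Named in every library were, by role, the 3 genes of largest change among those that passed for time, the 5 of smallest p for tissue and training, the catalytic, immunoproteasome and tissue-specific subunits, Psmc5, the ubiquitin receptors, Psmd14, the activators and Psmf1, and from the pathway list the 4 largest passing rises and falls and 8 fixed genes, of which some are not reported here. Other genes named by value, such as Psmb1, Psmc6 and the alpha subunits under offsets, were chosen after their values were seen. Of the 48 proteasome genes, 40 had a promoter window; those without one included Psmb2, Psmc3 and Psmd3, which were lower at 6 h.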

Additional observations from a re-analysis of the deposited data

Results flagged for a closer look

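For 7 genes the same contrast had counting intervals on opposite sides of 1 in the 2 tissues, with 1 library in each arm, so the difference was not tested across replicates. The share of all rows that meet this rule was not computed, so the count shows nothing particular to proteasome genes. Between the hippocampus control and conditioned 6 h libraries the mean chi-square was 72.1 over all rows compared and 12.9 over proteasome genes. Differences beyond counting error were thus common. From 1 h to 6 h in the controls, the ratio of Psmb7, a catalytic beta subunit, was 1.34 (95% counting interval 1.16 to 1.55) in the cortex and 0.483 (0.377 to 0.611) in the hippocampus. In a fit that leaves 1 residual degree of freedom, its tissue-by-time term was -1.36 ± 0.88 on the log2 scale and did not pass (adjusted p = 1, edgeR).

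For conditioned against control at 6 h, 3 ratios were above 1 in the cortex and below it in the hippocampus. Psma4 had 1.5 in the cortex and 0.423 in the hippocampus, the ATPase Psmc2 had 1.3 and 0.63, and the regulatory subunit Psmd12 had 1.33 and 0.613. Another 3 went the opposite way. The ATPase Psmc3 had 0.81 in the cortex and 1.94 in the hippocampus, the lid subunit Psmd3 had 0.67 and 2.05, and the ubiquitin receptor Psmd4 had 0.796 and 3.12. All 6 hippocampus ratios, and that of Psmb7, use the hippocampus control 6 h library, the shallowest, in which Kif5c took 8.01% of the counts.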

How the results depend on the processing

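The count of genes higher at 6 h, 2 (12.9% of all rows), was 5 with all 8 libraries as labelled (23.1%). It was 1 with upper-quartile factors (8.33%), DESeq2 (11.6%) or rows of a gene summed (12.1%), and 0 with GC and length offsets (4.17%). With these offsets and without the hippocampus control 6 h library it was also 0 (1.24%). This count moved as well with a library left out. The count lower, 11 (10.3% of all rows), was 17 with all 8 libraries (19.3%), 1 with offsets (1.37%), 0 with offsets and without the hippocampus control 6 h library (0.582%), and 0 to 17 with a library left out (0% to 21.1%). The time median, -0.37, was -0.85 to -0.39 with a library left out. Of the 13 calls, limma-voom kept 13, DESeq2 11 and upper-quartile factors 10. Psmb5 turned from -1.43 to 0.08 with offsets. No gene passed for tissue under any of 13 alternatives, and for training 0 to 4 were higher with a library left out. Pathway genes higher at 6 h, 12, were 23 with all 8 libraries, 2 with offsets, 0 with offsets without the hippocampus control 6 h library, 6 with offsets on all 8 libraries and 0 to 20 with a library left out. Those lower, 15, were 7 with the pair summed, 3, 0 and 8 under the same 3 offset settings, and 0 to 22 with a library left out. Fits with a library left out had 1 residual degree of freedom fewer, and the cause of the other shifts was not tested. No paired analysis was possible because the labels give no replicate numbers and each combination has 1 library.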
